A study of Mus musculus with 16 samples.

Results

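Transcripts of 10 cytokine and chemokine genes were examined in microglia-enriched RNA of mice on a standard or a malnourished diet. The genes were Tnf, Il1a, Il1b, Ccl2, Ccl3, Ccl4, Ccl12, Cxcl2, Cxcl10, and Cxcl16, taken by name from the 24421 rows of the deposited count table, and all 10 were among the 14565 genes that passed the filter on low counts. RNA-Seq was done on CD11b+ brain cells of C57BL/6J mice, 4 libraries from control mice (CON), 5 from malnourished mice (MAL), and 7 from malnourished mice that were also exposed to bacteria (MAL-BG). After weaning, CON mice ate standard chow, and MAL and MAL-BG mice an isocaloric diet low in protein and fat, for 1 month. MAL-BG mice in addition received a mix of E. coli and Bacteroidales species by gavage, the other mice received PBS, and no group analysed here received the bacteria on the standard diet, so the comparisons with MAL-BG hold the bacteria and the diet together, or the bacteria on top of the diet. The labels name cortical tissue and the Methods whole cerebra, and the CD11b+ fraction was taken on magnetic beads after enzymatic dissociation in a heated dissociator.

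Microglia are the resident macrophages of the brain and an important source of these signals. TNF, the product of Tnf, and the interleukin-1 cytokines IL-1α and IL-1β, the products of Il1a and Il1b, start and amplify inflammation, and microglial TNF, IL-1α, and complement C1q together can push astrocytes into a reactive state. Chemokines direct leukocytes. The CC chemokines of Ccl3 and Ccl4 draw monocytes and T cells, and those of Ccl2 and Ccl12 act on CCR2, the main chemokine receptor of inflammatory monocytes, while the CXC chemokine of Cxcl2 draws neutrophils through CXCR2, that of Cxcl10 draws T cells and NK cells through CXCR3, and that of Cxcl16 is made as a membrane protein and binds CXCR6. Transcription of many of these genes is driven by the NF-κB and AP-1 transcription factors, which respond within minutes to Toll-like receptors, to TNF and IL-1 themselves, and to the handling of cells, and their mRNAs are often short-lived through AU-rich elements in the 3′ untranslated region.

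Library totals ranged from 10312703 to 13461574 counts in CON, from 10864121 to 12819982 in MAL, and from 14191791 to 18705202 in MAL-BG, so the MAL-BG libraries were the deepest. Microglial identity was checked with 10 marker genes including Tmem119, P2ry12, and Cx3cr1, all of which were detected, and their summed level was 16800 to 27500 CPM (counts per 1000000 counts of a library) in CON, 17470 to 29780 CPM in MAL, and 36850 to 50300 CPM in MAL-BG. The MAL-BG sum was higher than in CON (two-sided exact permutation test, adjusted p = 0.0182 over 36 tests of marker sums) and than in MAL (same exact permutation test, adjusted p = 0.0152). Summed markers of choroid plexus, astrocytes, and neurons were lower in MAL-BG than in both other groups, and summed lymphocyte markers were higher (exact permutation tests, adjusted p between 0.0152 and 0.0455). Without single libraries the choroid plexus difference from MAL reached an adjusted p of 0.109. In RNA from a mixed fraction, fewer cells of a type and less RNA per cell cannot be told apart. The titles of the samples carry 2 letters that could mark batches, and no label ties a column of the table to a title, so no batch could be assigned to a library here and the part of a batch in the results was not tested.

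The sequences show how unlike the regulatory regions of these genes are. RefSeq promoters on GRCm38.p6 were matched by symbol for 7 of the 10 genes (Tnf, Il1a, Il1b, Ccl3, Ccl12, Cxcl2, and Cxcl10). Shown are the 250 bases before the RefSeq start of 3 genes that were lower in MAL-BG than in both other groups (Tnf, Il1a, Cxcl2), of the gene with the most motif matches (Cxcl10), and of the gene that was higher than in both (Ccl3), written 5′ to 3′ on the strand of the gene. Capitals mark matches, on either strand, to the κB consensus of NF-κB, to the AP-1 site TGANTCA, to the core TTTCNNTTT of the interferon-stimulated response element, and to the TATA box TATAAA.
Tnf, chr17:35202008-35202257, minus strand: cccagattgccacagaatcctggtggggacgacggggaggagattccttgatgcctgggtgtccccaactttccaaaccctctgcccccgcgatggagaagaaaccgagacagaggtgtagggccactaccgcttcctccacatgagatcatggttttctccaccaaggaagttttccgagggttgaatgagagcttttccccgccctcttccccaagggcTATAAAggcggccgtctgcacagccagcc
Il1a, chr2:129309973-129310222, minus strand: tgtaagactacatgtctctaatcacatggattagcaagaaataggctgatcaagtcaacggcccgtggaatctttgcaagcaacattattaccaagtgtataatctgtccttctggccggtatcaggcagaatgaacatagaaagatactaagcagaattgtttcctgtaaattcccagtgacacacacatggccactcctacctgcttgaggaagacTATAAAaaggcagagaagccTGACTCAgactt
Cxcl2, chr5:90903649-90903898, plus strand: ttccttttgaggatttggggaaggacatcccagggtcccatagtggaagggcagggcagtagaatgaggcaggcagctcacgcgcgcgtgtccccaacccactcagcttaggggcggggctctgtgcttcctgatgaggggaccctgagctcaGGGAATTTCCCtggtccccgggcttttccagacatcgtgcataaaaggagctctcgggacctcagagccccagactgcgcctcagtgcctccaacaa
Cxcl10, chr5:92348890-92349139, minus strand: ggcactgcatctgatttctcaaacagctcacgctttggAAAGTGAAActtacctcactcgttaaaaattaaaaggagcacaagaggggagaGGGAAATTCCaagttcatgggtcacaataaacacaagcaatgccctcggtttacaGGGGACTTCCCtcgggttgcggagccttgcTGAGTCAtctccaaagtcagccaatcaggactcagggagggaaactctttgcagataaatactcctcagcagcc
Ccl3, chr11:83649379-83649628, minus strand: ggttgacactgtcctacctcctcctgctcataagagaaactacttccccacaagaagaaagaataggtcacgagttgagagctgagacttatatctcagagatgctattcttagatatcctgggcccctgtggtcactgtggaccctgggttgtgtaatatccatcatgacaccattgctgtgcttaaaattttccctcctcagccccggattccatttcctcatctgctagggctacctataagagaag

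A κB match was in 2 of the 7 promoters, those of Cxcl2 and Cxcl10, against 7.25% of all 32851 promoters of this length. In Cxcl2 it was 1 stretch, read on both strands as overlapping matches, 87 to 97 bases before the start, and in Cxcl10 there were 2 stretches, 94 to 104 and 150 to 159 bases before the start. An AP-1 match was in Il1a, 6 to 12 bases before the start, and in Cxcl10, 68 to 74 bases before it, against 6.75% of all promoters. The interferon-stimulated core was in Cxcl10 alone of the 7, against 9.37% of all, and the TATA box in Tnf, Il1a, Il1b, and Ccl12, 24 to 32 bases before the start, against 12.4% of all. In the Ccl3 window none of these letters occurred. Such matches are descriptions of letters and not evidence of a bound factor.

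The AU-rich pentamer ATTTA was counted in the annotated 3′ ends (GENCODE vM21, sense strand, after the stop codon), a search added after the values were known. All 10 genes held at least 1 pentamer, as did 65.2% of 21020 genes. The longer element TTATTTATT occurred in Tnf, 5 times in 764 bases, and in Cxcl2, 4 times in 1494 bases, and in 7.66% of all genes, without regard to length. Il1a, with the largest fall against CON, held 3 pentamers in 1101 bases, and Ccl12, with the most per kilobase (29.9), held 5 in 167 bases. Neither held the longer element. Whether these elements bear on the levels was not tested. The densest 30 bases of Tnf and Cxcl2 are given beside those of Il1b and Ccl3, which hold pentamers but not the longer element, and capitals mark the pentamers.
Tnf, chr17:35199677-35199706, minus strand: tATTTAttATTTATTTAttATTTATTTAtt
Cxcl2, chr5:90905328-90905357, plus strand: ATTTATTTAtctatgtATTTATTTATTTAt
Il1b, chr2:129364801-129364830, minus strand: ttacctATTTATTTAtgtATTTAttgattg
Ccl3, chr11:83648075-83648104, minus strand: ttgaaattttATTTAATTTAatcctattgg

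Against CON, Tnf, Il1a, Il1b, Cxcl2, and Cxcl10 were lower in MAL-BG, and Ccl3 was higher. The falls were between 1.88-fold (Il1b) and 6.97-fold (Il1a), and the rise of Ccl3 was 1.74-fold. Against MAL, Tnf, Il1a, and Cxcl2 were again lower, by 3.03-fold to 4.25-fold, and Ccl3 and Ccl4 were higher, by 2.08-fold and 1.86-fold. None of the 10 genes was called between MAL and CON. A call is an adjusted p under 0.05 in edgeR's quasi-likelihood test over all 14565 genes together with an absolute log2 fold change above 0.58.

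These counts stand beside a background in which many genes were called. Against CON, 5 of the 10 genes were called lower, where 21.7% of all genes tested were, and 1 was called higher, where 11.4% were. Against MAL, 3 were called lower and 2 higher, where 20.2% and 10.2% of all genes were. In either direction these are 6 and 5 of 10 genes, where 33.1% and 30.4% of all genes were called. In all 5 genes called lower against CON, the 7 MAL-BG libraries lay below the 4 CON libraries without overlap, which held for 11.1% of all genes, and in 0 of the 10 did they lie above them (9.83% of all genes). Against MAL, Il1a and Cxcl2 lay below without overlap (8.95% of all genes) and 0 genes lay above (7.86%). Il1a and Cxcl2 lay below all 9 CON and MAL libraries, as did 6.36% of all genes, and none of the 10 genes lay above all 9 (6.17% of all genes). Both comparisons share the MAL-BG libraries.

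**Figure D1:**
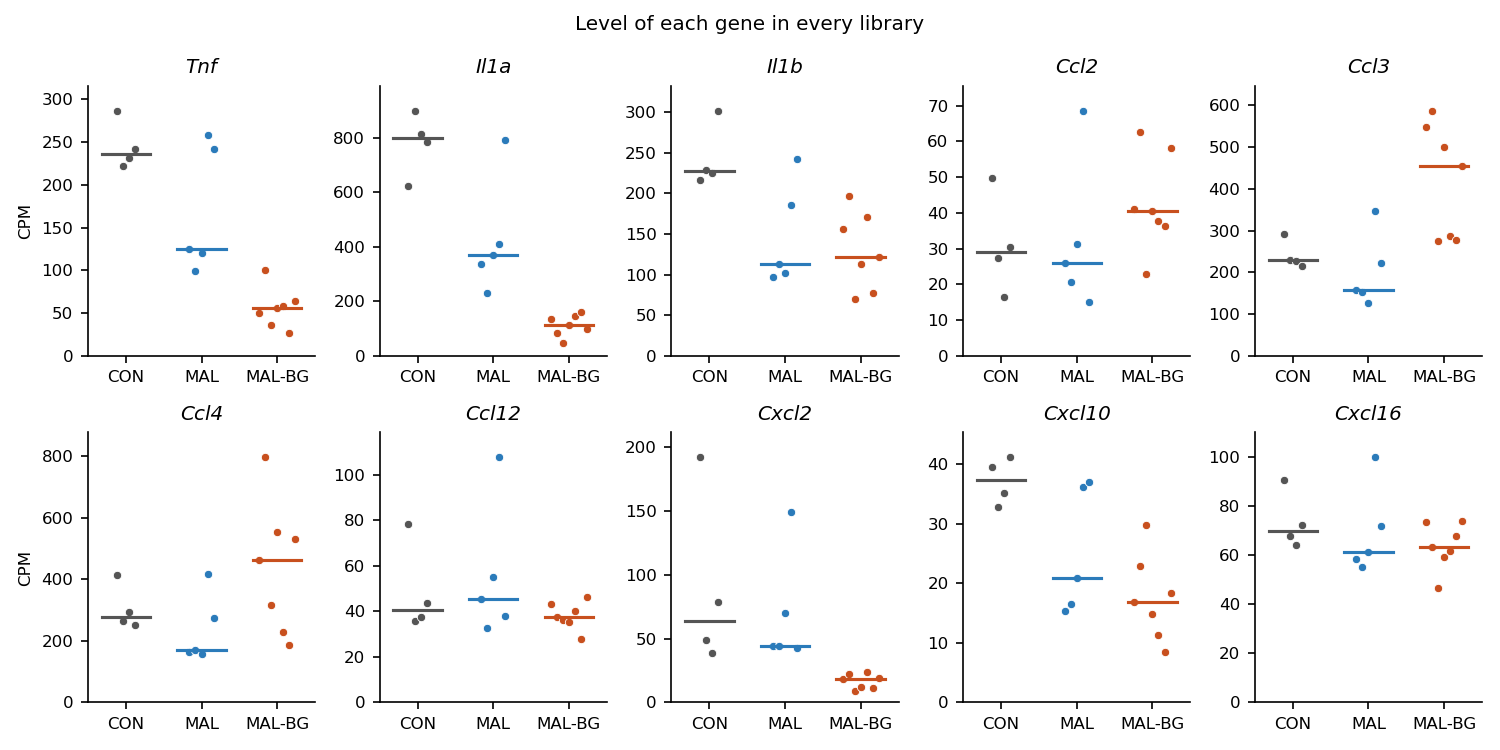
Level of each of the 10 genes (CPM, linear axis from 0, 1 scale per panel) in every library of CON (n = 4), MAL (n = 5), and MAL-BG (n = 7). Points are libraries and lines are medians. Il1a and Cxcl2 of MAL-BG lie below all other libraries, and 4 of 7 MAL-BG libraries lie above all others for Ccl3.

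Il1a, which codes for an interleukin that is active without cleavage and acts as an alarm signal, had the largest fall against CON, while against MAL that of Cxcl2 was larger. Its level was 624.7, 901, 814, and 787 CPM in the CON libraries, and 337, 229.8, 372, 409, and 794 CPM in the MAL libraries. In MAL-BG it ran from 45.8 to 162 CPM with a median of 113 CPM. No MAL-BG library reached the lowest MAL library, while 1 MAL library (number 5) lay among the CON libraries. On the log2 scale Il1a differed by -2.80 from CON (standard error 0.308, adjusted p = 1.075e-05, edgeR) and by -1.93 from MAL (standard error 0.292, adjusted p = 1.22e-04, edgeR). A predicted antisense gene, Gm14023, overlaps exons of Il1a. The Methods name a stranded library kit, and the strand option of the counting is not given in the sources used here.

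Tnf codes for the cytokine TNF, a trimer that is shed from the membrane by the protease of Adam17. Tnf was at 287, 222, 231, and 241 CPM in CON and at 125, 99.1, 121, 258, and 242 CPM in MAL. In MAL-BG it was between 26.7 and 99.99 CPM with a median of 55.7 CPM. The highest MAL-BG library (number 2) lay just above the lowest MAL library and the other 6 lay below all MAL libraries, and MAL libraries 4 and 5 lay in the CON range. The fold changes on the log2 scale were -2.14 against CON (standard error 0.298, adjusted p = 7.02e-05, edgeR) and -1.60 against MAL (standard error 0.284, adjusted p = 4.01e-04, edgeR).

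Il1b, whose product must be cut by caspase-1 of an inflammasome to become active, behaved unlike Il1a. The CON libraries had 217, 228, 225, and 302 CPM, the MAL libraries had 97.1, 113, 102, 186, and 242 CPM, and MAL-BG ran from 69.8 to 197 CPM with a median of 121.5 CPM. All MAL-BG libraries were below all CON libraries, but MAL and MAL-BG covered much the same range. Il1b of MAL-BG had a log2 fold change of -0.91 relative to CON (standard error 0.283, adjusted p = 0.0153, edgeR) and of -0.19 relative to MAL (standard error 0.269, adjusted p = 0.577, edgeR). The call against CON was lost without CON library 4 (adjusted p = 0.0545) and with libraries scaled by their mean log2 CPM (adjusted p = 0.065).

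Cxcl2, the neutrophil chemokine, had 193, 48.6, 38.7, and 79.0 CPM in CON and 44.3, 44.2, 70.1, 150, and 42.4 CPM in MAL, with 1 library of each group (CON 1 and MAL 4) far above the rest of its group. In MAL-BG it ran from 8.82 to 23.5 CPM with a median of 18.7 CPM, below every CON and MAL library. Cxcl2 fell by 5.44-fold from CON and by 4.25-fold from MAL, with log2 values of -2.44 (standard error 0.425, adjusted p = 3.28e-04, edgeR) and -2.09 (standard error 0.406, adjusted p = 7.74e-04, edgeR). Without the 2 high libraries it was -1.68 and -1.55 (adjusted p = 2.06e-04 and 2.21e-04, edgeR).

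Cxcl10, an interferon-induced chemokine, had 39.5, 32.7, 35.2, and 41.2 CPM in CON. In MAL it had 15.3, 16.6, 20.9, 36.2, and 37.0 CPM, 3 libraries under the CON range and 2 within it. MAL-BG ran from 8.38 to 29.8 CPM with a median of 16.8 CPM, below CON throughout and over the lower part of the MAL range. It was lower than in CON by 2.13-fold, or -1.09 on the log2 scale (standard error 0.296, adjusted p = 0.00698, edgeR) and stood at -0.53 relative to MAL (standard error 0.282, adjusted p = 0.136, edgeR).

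Ccl3 and Ccl4 code for the chemokines MIP-1α and MIP-1β and lie near each other on chromosome 11, Ccl3 from 83647844 to 83649355 on the minus strand and Ccl4 from 83662584 to 83664683 on the plus strand. Ccl3 had 293, 229, 228, and 215 CPM in CON and 158, 153, 126, 346, and 222 CPM in MAL, and ran from 275 to 587 CPM with a median of 454.5 CPM in MAL-BG. The MAL-BG libraries fell into 4 above every CON and MAL library (454.5 to 587 CPM) and 3 between 275 and 288 CPM, inside the range of the others. Ccl3 differed by 0.80 on the log2 scale from CON (standard error 0.279, adjusted p = 0.0282, edgeR) and by 1.06 from MAL (standard error 0.260, adjusted p = 0.00387, edgeR). The call against CON was lost without CON library 2, 3, or 4 (adjusted p between 0.0699 and 0.0763), without MAL-BG libraries 2, 5, and 7 (0.81, adjusted p = 0.0634), and with length and GC offsets (0.35, adjusted p = 0.228).

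Ccl4 had 416, 264, 293, and 251 CPM in CON and 163, 171, 159, 419, and 273 CPM in MAL. In MAL-BG it ran from 186 to 798 CPM with a median of 463 CPM, the widest range of any gene and group here in CPM, with 2 libraries below all of CON and 4 above. For Ccl4 the fold change on the log2 scale was 0.53 over CON (standard error 0.361, adjusted p = 0.248, edgeR) and 0.89 over MAL (standard error 0.339, adjusted p = 0.0414, edgeR). The second value is close to the threshold and was called in 15 of 29 alternatives.

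Ccl2 and Ccl12, both ligands of CCR2, were not called with TMM scaling of all 16 libraries. With length and GC offsets Ccl12 was called lower (-0.84 relative to CON and -0.94 relative to MAL on the log2 scale, adjusted p = 0.00581 and 0.00216, edgeR). Ccl2 had 49.9, 27.4, 16.5, and 30.5 CPM in CON, 26.1, 20.7, 31.2, 68.7, and 15.2 CPM in MAL, and 23.0 to 62.7 CPM (median 40.7) in MAL-BG. Its log2 fold changes of 0.46 and 0.40 had wide errors (standard errors 0.369 and 0.342, adjusted p = 0.325 and 0.354, edgeR). Ccl12 had 78.1, 35.6, 37.4, and 43.8 CPM in CON, 45.5, 32.7, 55.1, 108, and 38.0 CPM in MAL, and 28.1 to 46.4 CPM (median 37.6) in MAL-BG, with log2 fold changes of -0.36 and -0.55 (standard errors 0.278 and 0.260, adjusted p = 0.311 and 0.0949, edgeR). The highest CON library and the highest MAL library were the same in both genes, CON 1 and MAL 4. Without these libraries Ccl2 was called higher in MAL-BG, with values of 0.86 relative to CON and 0.92 relative to MAL on the log2 scale (adjusted p = 0.0216 and 0.00831, edgeR), and Ccl12 stood at 0.04 and -0.12. Leaving out the highest library of CON and of MAL by itself moves both genes toward higher values in MAL-BG. The highest Ccl2 library of MAL-BG (62.7 CPM) was kept, so the p-values of this fit depend on that choice.

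Cxcl16, the membrane chemokine, had the smallest fold changes of the 10 genes in both comparisons with MAL-BG. It had 90.5, 67.8, 63.9, and 72.1 CPM in CON, 58.2, 55.3, 61.2, 99.9, and 71.8 CPM in MAL, and 46.5 to 73.8 CPM (median 63.4) in MAL-BG, and the ranges of the 3 groups overlapped. They were -0.21 on the log2 scale over CON (standard error 0.161, adjusted p = 0.304, edgeR) and -0.12 over MAL (standard error 0.151, adjusted p = 0.529, edgeR). Zmynd15 lies antisense over exons of Cxcl16.

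**Figure D2:**
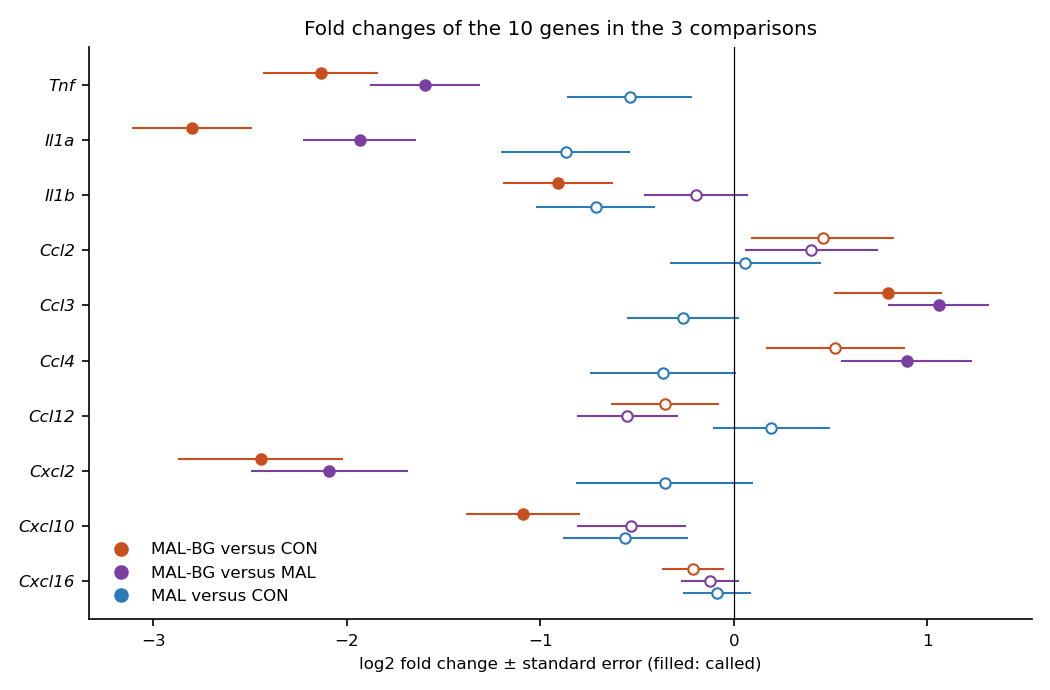
Log2 fold change with standard error of the 10 genes in MAL-BG versus CON, MAL-BG versus MAL, and MAL versus CON (edgeR fit of all 16 libraries). Filled points are called and open points are not. The filled points left of 0 reach -2.80 (Il1a), those right of 0 are Ccl3 in both comparisons and Ccl4 against MAL, and all MAL versus CON points are open.

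Between MAL and CON, the comparison that holds the diet alone, 0 of the 10 genes and 0% of all 14565 genes were called by edgeR. At an unadjusted p under 0.05 there were 2 of the 10 genes, against 1.46% of all genes (212 genes). By DESeq2, fitted with no term for batch, the call count was 0 as well, and 241 genes passed the unadjusted threshold, Il1a and Il1b again among them. They were Il1a, with a log2 fold change of -0.87 (standard error 0.333, unadjusted p = 0.0183, adjusted p = 0.9995, edgeR), and Il1b, with -0.71 (standard error 0.307, unadjusted p = 0.0328, adjusted p = 0.9995, edgeR). In both genes 4 of 5 MAL libraries lay below all CON libraries and the other, number 5, lay within the CON range. In 0 of the 10 genes were the MAL libraries all above or all below CON (0.412% and 0.302% of all genes). Tnf was at -0.54 (standard error 0.325) and Cxcl10 at -0.56 (standard error 0.322), with 3 of 5 MAL libraries below all CON libraries in each.

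Per length of exon, in RPKM (CPM divided by exon length in kilobases), the order of the 10 genes was not the same in the groups. In CON the medians were 422 for Ccl4, 406 for Il1a, 298 for Ccl3, 167 for Il1b, and 144 for Tnf, then 75.7 for Ccl12 and 24.6 to 35.6 for Ccl2, Cxcl2, Cxcl16, and Cxcl10. The libraries of neighbours in this order overlapped, apart from gaps between the lowest Ccl3 library (280.6) and the highest Il1b library (222.5) and between the lowest Ccl12 library (66.3) and the highest Ccl2 library (61.4). In MAL-BG Ccl4 (701) and Ccl3 (593) stood apart from the others, the lowest Ccl3 library being at 359 RPKM and the highest library of the next gene, Il1b, at 145.3 RPKM, and all later neighbours overlapped. Il1a had rank 2 in CON, rank 3 in MAL, and rank 5 in MAL-BG with a median of 57.1 RPKM, Tnf had rank 5 in CON and 7 in MAL-BG with 34.0 RPKM, and Cxcl2 rank 8 in CON and 10 in MAL-BG with 10.1 RPKM.

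A ratio of counts between 2 genes within a library does not depend on how libraries are scaled. Ratios were formed for all 45 pairs of the 10 genes, a description added after the fold changes were known, and tested on the log2 scale with two-sided exact permutation tests adjusted over 135 tests. Of the 45 pairs, 28 passed in MAL-BG versus CON, 28 in MAL-BG versus MAL, and 0 in MAL versus CON (lowest adjusted p = 0.0824, exact permutation). The pairs share the same 10 genes, so these counts largely restate the differences between their fold changes. No share over pairs of other genes was computed, so the counts have no background. Tnf and Ccl3 had nearly equal counts in CON, with ratios of 0.97 to 1.12. In MAL the ratio was 0.65 to 1.09, and in MAL-BG 0.0915 to 0.202, without overlap with either group. The difference in log2 ratio was -2.97 against CON (exact permutation test, adjusted p = 0.0108, the raw p of 0.00303 being the smallest that 330 splits allow) and -2.68 against MAL (exact permutation test, adjusted p = 0.0108, raw p = 0.00126, the smallest that 792 splits allow).

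The pair of interleukin-1 genes also came apart. There were 2.61 to 3.94 Il1a counts per Il1b count in CON and 2.03 to 3.63 in MAL, against 0.418 to 2.09 in MAL-BG, where the median was 0.868. The difference in log2 ratio was -1.90 against CON and -1.72 against MAL (exact permutation tests, adjusted p = 0.0108 and 0.0122). The neighbouring genes Ccl3 and Ccl4 had ratios of 0.704 to 0.868 in CON, 0.793 to 0.97 in MAL, and 0.736 to 1.5 in MAL-BG, where 3 of 7 libraries lay above all others, and their log2 ratio differed by 0.34 and 0.24 from CON and MAL (exact permutation tests, adjusted p = 0.204 and 0.296). The CCR2 ligands Ccl2 and Ccl12 had a ratio of 0.44 to 0.768 in CON, 0.4 to 0.637 in MAL, and 0.637 to 1.67 in MAL-BG. That log2 ratio was higher in MAL-BG by 0.97 against MAL (exact permutation test, adjusted p = 0.0122) and by 0.80 against CON (exact permutation test, adjusted p = 0.0502).

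**Figure D3:**
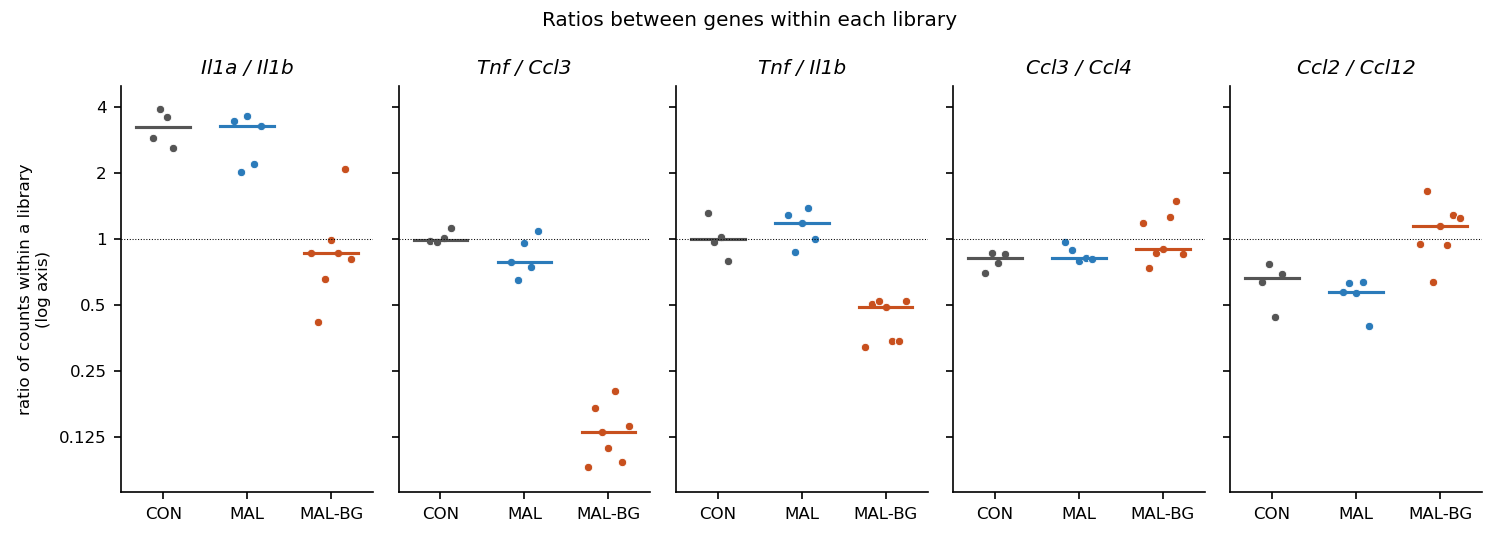
Ratio of counts of 2 genes within each library (log axis, dotted line at 1) for 5 pairs in CON (n = 4), MAL (n = 5), and MAL-BG (n = 7). Points are libraries and lines are medians. The Tnf to Ccl3 ratio is 0.0915 to 0.202 in MAL-BG against 0.65 or more elsewhere, and the Ccl3 to Ccl4 ratio is 0.736 to 1.5 in MAL-BG against 0.704 to 0.97 elsewhere.

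Genes of the pathway around these cytokines were taken from lists, whose counts stand beside the 21.7% of all genes called lower and 11.4% called higher against CON, and 20.2% and 10.2% against MAL. Of 26 genes of NF-κB and upstream signalling, 9 were called lower and 1 (Traf2) higher against CON, and 7 were called lower and 0 higher against MAL. The median log2 fold change of the list was -0.11 and -0.19, where it was -0.04 and -0.03 over all genes. The 3 largest changes were those of Rel, a subunit of NF-κB, at 43.2 ± 4.45 CPM (SD, n = 4) in CON and 6.53 ± 2.79 CPM (SD, n = 7) in MAL-BG, of Nfkbiz, a nuclear cofactor of NF-κB, which went from 1022 ± 195 to 166 ± 50.3 CPM, and of Tnfaip3, which codes for the inhibitor A20, from 1070.0 ± 359 to 191 ± 59.2 CPM. Their log2 fold changes against CON were -2.72, -2.62, and -2.49, and all were called against MAL too (-2.35, -2.45, and -1.91). Nfkbia, Nfkbid, and Nfkbie, which code for inhibitors of the same family and are transcribed in answer to NF-κB, were also called lower in both comparisons.

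Among 36 other cytokines and chemokines, 34 could be tested, and 7 were called lower and 4 higher against CON, 9 lower and 4 higher against MAL, and the shares against CON were close to those of all genes. The list had median log2 fold changes of -0.15 and 0.04. Cxcl1, like Cxcl2 a ligand of CXCR2, was at 19.1 ± 5.97 CPM in CON (SD, n = 4) and 1.25 ± 0.592 CPM in MAL-BG (SD, n = 7), and differed by -3.93 on the log2 scale (adjusted p = 6.02e-06, edgeR). Tnfsf9, the gene of 4-1BB ligand, fell from 46.0 ± 8.47 to 8.08 ± 2.63 CPM, and Il10, which codes for an anti-inflammatory cytokine, from 4.94 ± 5.12 to 1.25 ± 0.842 CPM, where the CON mean rests on library 1 (12.4 CPM, with 1.48, 1.89, and 3.94 CPM in the others) and is 2.44 CPM without it. The genes called higher in both comparisons were Tnfsf12, Tnfsf13b, and Ccl5.

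Of 13 receptors for these signals, 3 were called higher and 0 lower against CON, and 2 higher and 1 (Ccr2) lower against MAL. Cx3cr1, the fractalkine receptor of microglia and itself one of the microglia markers, rose from 3075 ± 908 to 7720.0 ± 2347 CPM against CON, and Tnfrsf1b, which codes for TNF receptor 2, from 271 ± 55.0 to 450.5 ± 60.6 CPM with a log2 fold change of 0.74. Cxcr2, the receptor for the products of Cxcl1 and Cxcl2 and a neutrophil gene, rose from 2.41 ± 1.36 to 9.66 ± 8.91 CPM. Among 12 genes of processing and release, Nlrp3, the sensor of an inflammasome, and Casp4, an inflammatory caspase, were lower (log2 fold change -1.14 for each against CON), Casp8 was called lower as well, and Adam10 and Adam17, which code for proteases that shed membrane proteins including TNF and the product of Cxcl16, were called higher against CON. Against MAL, Nlrp3, Casp4, and Casp8 were called lower and Adam10 higher.

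In the list of 11 genes for decay of AU-rich mRNAs, 2 were called lower and 0 higher in both comparisons, where 21.7% and 20.2% of all genes were called lower. Zfp36, the most abundant gene of the list, was called in neither (3374 to 7465 CPM in CON and 2270 to 5539 CPM in MAL-BG). Both genes that were called code for proteins that promote decay. Zc3h12a, the gene of the RNase Regnase-1, fell from 65.2 ± 8.10 to 18.8 ± 6.67 CPM (log2 fold change -1.79 against CON), and Zfp36l1 from 923 ± 218 to 445 ± 125 CPM (-1.05). Of 11 antagonists and feedback genes, Socs3, Dusp1, and Dusp2, which are rapidly induced inhibitors of JAK-STAT and MAP kinase signalling, were called lower in both comparisons, with log2 fold changes of -2.13, -1.08, and -1.82 against CON. Sigirr, a negative regulator of IL-1 receptor signalling, was called higher in both, and Cd200r1 and Tgfbr1 were called higher against CON and not called against MAL. Of 15 interferon-stimulated genes, 3 were called higher (Ifit1, Rsad2, Bst2) and 2 lower (Stat2, Mx1) against CON, and 2 higher (Rsad2, Bst2) and 3 lower (Stat2, Ifit2, Mx1) against MAL, with list medians of 0.42 and 0.27 on the log2 scale. Between MAL and CON no gene of any list was called.

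Dissociation of tissue at warm temperature switches on immediate early genes, so their level was set beside the cytokines. The summed level of 21 early response genes was 24530 to 48610 CPM in CON, 26110 to 54620 CPM in MAL, and 15110 to 41310 CPM in MAL-BG, with overlap between all groups (exact permutation tests of the sum, adjusted p = 0.599 against CON and 0.159 against MAL, the second 0.0334 without MAL-BG library 2). The sum is carried by the abundant genes. In the mean log2 CPM of the same genes, 5 of 7 MAL-BG libraries lay below all CON and MAL libraries, and the MAL-BG mean differed by -0.45 from CON and by -0.56 from MAL (exact permutation tests added after the values were seen, p = 0.136 and 0.0379, adjusted p = 0.409 and 0.227 over 6 tests). Of the 21 genes, 8 were called lower and 1 higher against CON, and 10 lower and 3 higher against MAL. Fos stood at 2995 ± 669 CPM in CON (SD, n = 4), 3980.0 CPM in MAL, and 2181 ± 544 CPM in MAL-BG (SD, n = 7), with log2 fold changes of -0.46 (adjusted p = 0.113, edgeR) and -0.87 (adjusted p = 0.00397, edgeR). Egr1 was called lower in both comparisons (-1.23 and -1.64), as was Atf3 (-1.32 and -1.16), and Jun in neither (-0.19 and -0.67). CON library 1 and MAL library 4, which were the highest of their groups in Tnf, Ccl2, Ccl3, Ccl4, Ccl12, Cxcl2, and Cxcl16, also had the highest early response sums of their groups (48610 and 54620 CPM) and the lowest choroid plexus sums (13840 and 6422 CPM). They were highest of their groups in border macrophage markers too, with 730.3 CPM against 233 to 388 CPM in the other CON libraries and 948 CPM against 266 to 401 CPM in the other MAL libraries, and in summed microglia and neutrophil markers. The neutrophil sum of CON library 1 was mostly 1 marker, Csf3r (1118 of 1254 CPM), so it does not show that this library held the most neutrophils of CON. The part of the early response and of these cells in the results was not tested.

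Across libraries, single genes followed the early response level to different degrees. Relations were computed for 10 genes within the 7 MAL-BG and within the 9 CON and MAL libraries (20 relations, exact permutation over pairings, adjusted over all). Ccl12 followed it in CON and MAL (Pearson's r = 0.97, exact permutation p = 4.13e-05, adjusted p = 8.27e-04, Spearman's rho = 0.983, exact p = 4.96e-05, adjusted p = 9.92e-04), and without the 2 libraries farthest from the median r was 0.892. Ccl2 followed it in MAL-BG (r = 0.935, exact permutation p = 0.00238, adjusted p = 0.0238, rho = 0.893, exact p = 0.0123, adjusted p = 0.082, r without 2 libraries 0.737). In CON and MAL, Ccl2 (r = 0.868, exact permutation p = 0.00382, adjusted p = 0.0255, rho = 0.733, exact p = 0.0311, adjusted p = 0.156) and Cxcl2 (r = 0.885, exact permutation p = 0.00547, adjusted p = 0.0274, rho = 0.7, exact p = 0.0432, adjusted p = 0.16) rested on 2 libraries, without which r was 0.459 and 0.396. Tnf in MAL-BG had the highest rho (0.929, exact permutation p = 0.00675, adjusted p = 0.0675, r = 0.833, exact permutation p = 0.0286, adjusted p = 0.0952, and r = 0.782 without 2 libraries). Il1a had an r of 0.248 in MAL-BG and of -0.259 in CON and MAL (exact permutation p = 0.571 and 0.487, adjusted p = 0.711 and 0.65), with rho of -0.214 and -0.383 (exact permutation p = 0.661 and 0.312, adjusted p = 0.696 and 0.521), and without 2 libraries r was -0.86 and -0.476.

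**Figure D4:**
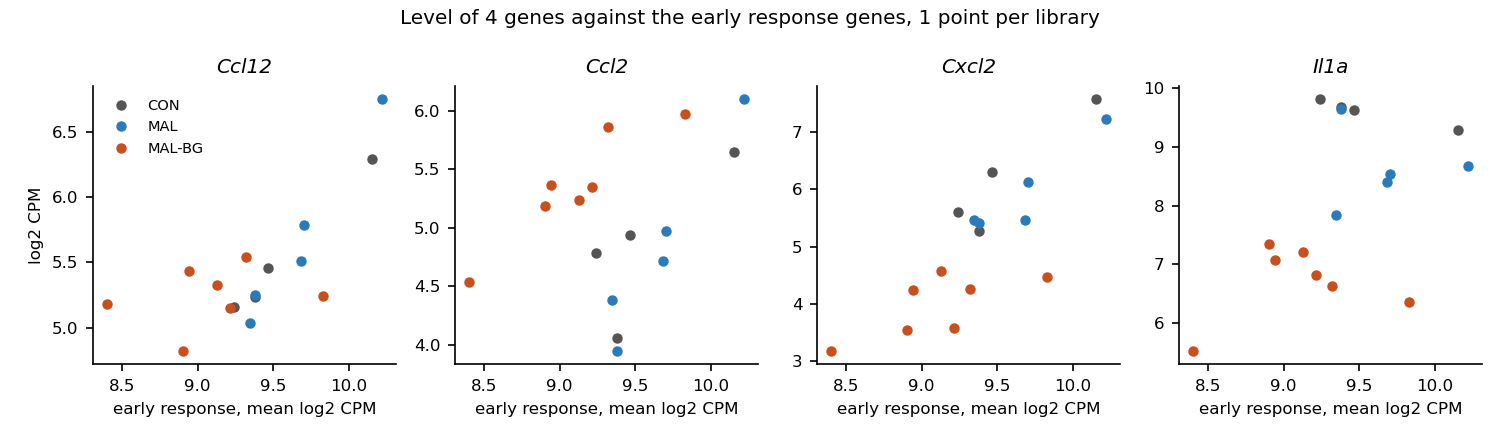
Level (log2 CPM) of Ccl12, Ccl2, Cxcl2, and Il1a against the mean log2 CPM of 21 early response genes, 1 point per library of CON (n = 4), MAL (n = 5), and MAL-BG (n = 7). The CON and MAL libraries farthest to the right are CON 1 and MAL 4, 5 of 7 MAL-BG libraries lie to the left of all others, and the Il1a points of MAL-BG lie below all others.

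Other CD11b+ cells can also make these cytokines. Summed neutrophil markers were 519 to 1254 CPM in CON, 536 to 1124 CPM in MAL, and 617 to 3484 CPM in 6 MAL-BG libraries, with 14350 CPM in MAL-BG library 5. Of 14 neutrophil genes tested, 11 were called higher against CON and 12 against MAL, and none was called lower. Their most abundant gene, Csf3r, was at 604.5 ± 348 CPM in CON and 458 ± 162 CPM in MAL-BG (adjusted p = 0.287, edgeR), and S100a9 at 46.4 ± 17.6 and 861 ± 1348 CPM. Csf3r carried the sum in CON and MAL, with means of 604.5 of 755.9 CPM and 588.5 of 775.7 CPM. The ranges of the sum therefore say little about the other neutrophil genes. S100a9 ran from 24.4 to 67.3 CPM in CON, 19.2 to 136 CPM in MAL, and 72.0 to 3831 CPM in MAL-BG. Without MAL-BG libraries 2, 5, and 7, the highest in these markers, Tnf, Il1a, and Cxcl2 were called lower in both comparisons, with log2 fold changes of -2.46, -2.68, and -2.76 against CON. In this fit Ccl3 was called against MAL (1.06) and not against CON (0.81, adjusted p = 0.0634, edgeR). Ccl4 was not called against MAL (0.74, adjusted p = 0.112, edgeR). The MAL-BG libraries kept had 49.9 to 145 CPM of S100a8, against 15.8 to 41.8 CPM in CON. The part of neutrophils in the results was not tested. Summed monocyte markers ran from 451 to 1683 CPM in MAL-BG against 1089 to 1902 CPM in CON (exact permutation test, adjusted p = 0.14), a sum carried by Nr4a1, which is also an early response gene. Without Nr4a1 the sum was 268 to 1294 CPM in MAL-BG and 208 to 749 CPM in CON, with means of 530.1 and 469 CPM (exact permutation test, adjusted p = 0.972). Markers of border macrophages ran from 247 to 369.5 CPM in MAL-BG against 233 to 730.3 CPM in CON (exact permutation test, adjusted p = 0.709). In this fraction, Ccr2, Ms4a4c, Vcan, and Nr4a1 were the monocyte genes called lower against MAL, and F13a1 and Cbr2 those of border macrophages.

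Since the summed microglia markers differed between groups, libraries were also scaled by these markers in place of TMM, which put the all-gene median of log2 fold changes at -0.86 against CON and -0.75 against MAL. On that scale Ccl3 lost its call against CON and Ccl4, not called before, turned in sign too (-0.02 and -0.24, adjusted p = 0.95 and 0.534, edgeR) and stood at 0.40 and 0.26 against MAL (adjusted p = 0.121 and 0.486), and Ccl2 turned from higher to lower (-0.34 and -0.26) without being called. Tnf, Il1a, Il1b, Ccl12, Cxcl2, Cxcl10, and Cxcl16 were then called lower in both comparisons. These 7 of 10 genes stand beside a larger background than with TMM. On that scale 9095 of all 14565 genes were called in either direction against CON and 8144 against MAL. Tnf, Il1a, and Cxcl2 were called lower in both comparisons in all 29 alternatives, with log2 fold changes against CON of -2.93 to -1.90, -3.71 to -2.53, and -3.17 to -1.68.

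**Figure D5:**
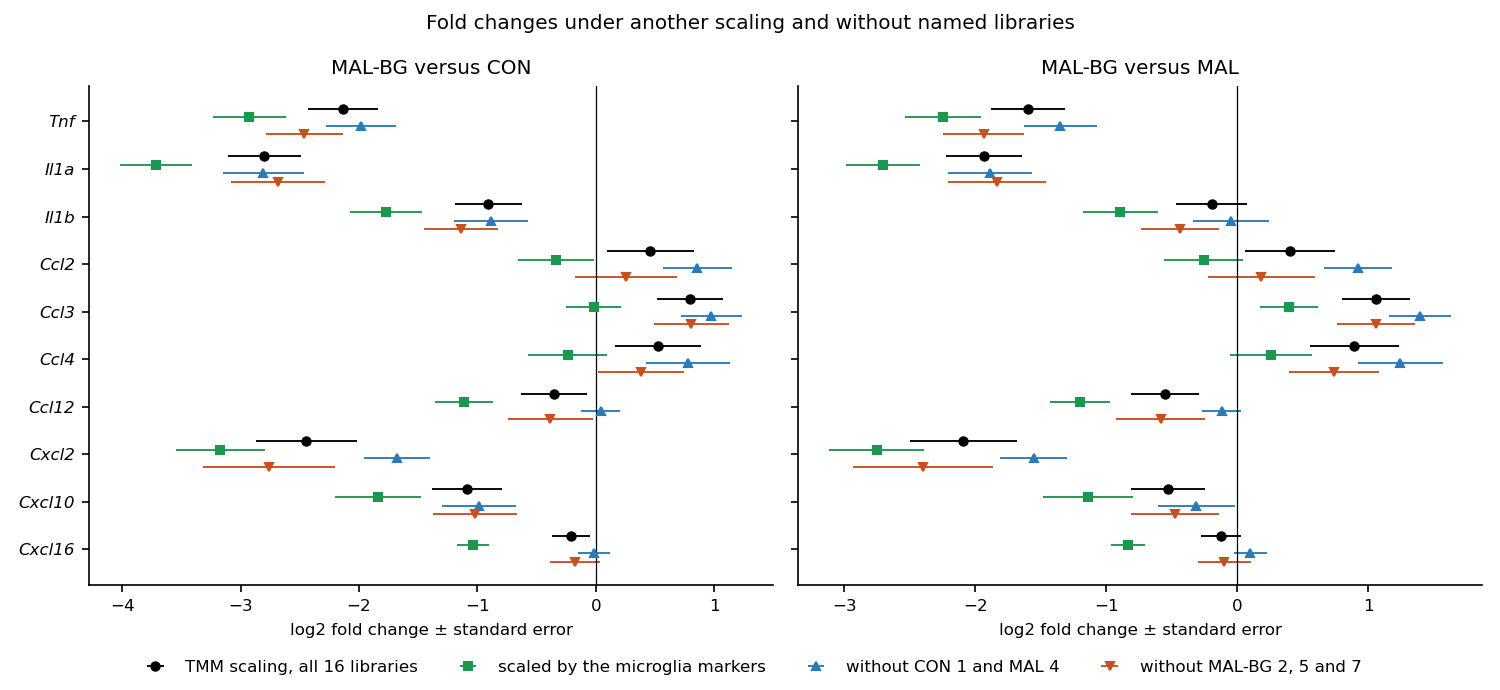
Log2 fold change with standard error of the 10 genes in MAL-BG versus CON (left) and MAL-BG versus MAL (right), with TMM scaling of all 16 libraries, with scaling by the microglia markers, without CON 1 and MAL 4, and without MAL-BG 2, 5, and 7. Tnf, Il1a, and Cxcl2 stay left of 0 in each setting, and Ccl3 against CON moves from 0.80 to -0.02 with the microglia scaling.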

How the data were processed

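RNA-Seq counts of 16 CD11b+ libraries (4 CON, 5 MAL, 7 MAL-BG) were used. The authors used STAR for alignment and HTSeq for counting, and deposited raw counts per gene. The submitters' processing notes name HTSeq 2.5 and the builds mm10 and GRCm38, while the Methods name another version of HTSeq. The Methods name a stranded library kit, and the counting mode and strand option are not given in the sources used here. Columns were assigned to groups by name. Their running numbers match no sample title and serve as library numbers. Totals were 10312703 to 18705202 counts per library, and each library was taken as 1 replicate, with a chi-square of 9.98 or more for each degree of freedom in all 37 within-group pairs. Whether libraries came from separate mice is not given in the labels, so p-values measure the spread between libraries.

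A gene was tested if 4 or more libraries had more than 10 counts, in 1 fit of the 3 groups with edgeR 4.0.16 (TMM scaling, quasi-likelihood test, Benjamini-Hochberg adjustment) in R 4.3.3. CPM used TMM-scaled totals, and log2 CPM a prior count of 2. RPKM used exon lengths of protein-coding transcripts in GENCODE vM21, since RefSeq exon lengths were not used here. Single values were compared by exact permutation tests in Python 3.11.15. The fit was run on simulated data with a log2 change of 1.5, up or down, in 200 genes of 1 group. Of these, 154 were called in MAL-BG versus CON, 158 in MAL-BG versus MAL, and 147 in MAL versus CON. Unchanged genes called were 5, 5, and 12. Far fewer genes changed there than were called with MAL-BG in the real libraries, so the simulation does not test the scaling. Alternatives were other scalings and filters, DESeq2 1.42.0, fits of 2 groups, thinning to 10312703 counts, length and GC offsets (values for 96.1% of genes), and each library left out. From pathway lists, up to 3 genes with the largest changes called against CON were named with values, from marker lists the summed level and up to 3 most abundant genes, and from the early response Fos, Jun, Egr1, and Atf3. Other list genes were named after their values were seen. Some list genes are not reported here. The 10 genes, the lists, and the tests were chosen with earlier results of these data known. Scaling by microglia markers, the 2 fits without named libraries, the ratios, and the search of 3′ ends were added after the values were seen.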

Additional observations from a re-analysis of the deposited data

Results flagged for a closer look

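Each gene was searched in each group for a library that lay far from the others, 30 searches in all, of which chance alone flags about 1 in 20. In CON, Il1b of library 4 was at 301.6 CPM with the nearest library at 228.4 CPM (gap over range 0.861, above the critical value 0.829 for 4 libraries). The fold change of Il1b against CON lost its call without this library (log2 fold change -0.80, adjusted p = 0.0545, edgeR). In MAL, Cxcl2 of library 4 was at 149.6 CPM with the nearest at 70.12 CPM (gap over range 0.741, critical value 0.71 for 5 libraries), the library that was also highest of MAL in Ccl2, Ccl12, Cxcl16, and the early response.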

How the results depend on the processing

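The number of the 10 genes called stayed within 1.5 times of the reported number in all 90 alternative settings of the 3 comparisons, from 4 to 7 against CON (6 reported) and from 4 to 7 against MAL (5 reported), and at 0 between MAL and CON. Ccl4 against MAL was not called with length and GC offsets (0.47, or 0.72 with mean log2 CPM scaling), with only the 2 groups compared (0.89), without MAL-BG 2, 5, and 7 (0.74, adjusted p = 0.112), or without any 1 of CON 3, MAL 1, 2, 3, or 5, and MAL-BG 1, 2, 4, or 7 (0.72 to 0.94). Ccl3 against CON was at 0.64 with offsets and mean log2 CPM scaling (adjusted p = 0.0515). Offsets brought Ccl12 to -0.84 against CON and -0.94 against MAL and Cxcl10 to -0.84 against MAL, all called, and with mean log2 CPM scaling as well Ccl12 against MAL was called at -0.70. Also called against MAL were Ccl2 without MAL 4 (0.87), Ccl12 without MAL 2 (-0.70), and Cxcl10 without MAL-BG 3 (-0.72). With microglia scaling, Il1b (-0.89), Ccl12 (-1.20), Cxcl10 (-1.14), and Cxcl16 (-0.83) were called lower against MAL, and Ccl12 (-1.11) and Cxcl16 (-1.04) against CON.

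The sign turned in values that were not called, apart from Ccl3 against CON with microglia scaling (-0.017). That scaling turned Ccl2 against CON (-0.34), MAL (-0.26), and for MAL against CON (-0.081), and Ccl4 against CON (-0.24). Mean log2 CPM scaling turned Cxcl16 against CON (0.033) and MAL (0.091, and 0.022 with offsets) and Il1b against MAL (0.023), and moved the median of all genes to 0.21 and 0.19. Without CON 1 and MAL 4, Ccl12 against CON (0.041), Cxcl16 against MAL (0.10), and Ccl2 for MAL against CON (-0.065) turned. Offsets turned Ccl2 for MAL against CON (-0.0028). With 1 library left out, Ccl2 (-0.42 to 0.37), Ccl12 (-0.19 to 0.51), Cxcl2 (-0.84 to 0.33), and Cxcl16 (-0.26 to 0.018) turned for MAL against CON, as did Cxcl16 (-0.20 to 0.037) and Il1b (-0.32 to 0.049) against MAL. The difference in summed early response from CON ran from -8196 to 48.0 CPM. With 1 library left out, the summed microglia markers passed in 14 of 16 cases against CON (highest adjusted p = 0.05) and in 16 of 16 against MAL, and those of choroid plexus in 13 and in 4 of 16 (highest adjusted p = 0.06 and 0.109, exact permutation tests). The causes were not tested.

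No paired analysis was possible because the columns of the table carry no replicate number of the labels. A batch term, which the study's supplementary code holds, could not be fitted here for the same reason. The precision is set by 4 to 7 libraries per group.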

Other observations

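Markers of other cell types that have no place beside a cytokine are given here as values. Against CON, 3 of 10 endothelial genes were called higher (Cldn5, Pecam1, Esam), where 11.4% of all genes were, and against MAL 5 were, where 10.2% of all genes were. Cldn5, a tight junction gene, was at 253 ± 120.1 CPM in CON and 758 ± 407.5 CPM in MAL-BG (SD, n = 4 and 7). Flt1 and Slco1a4, also among the most abundant of the list, were called in neither comparison (0.13 and -0.05 on the log2 scale against CON, adjusted p = 0.788 and 0.907, edgeR). The summed endothelial markers did not pass against CON or MAL (exact permutation tests, adjusted p = 0.342 and 0.0826). Lower in both comparisons with MAL-BG were 5 of 8 astrocyte genes, 7 of 8 neuronal genes, and, for choroid plexus, 8 of 8 against CON and 7 of 8 against MAL, with Ttr at 23110.0 ± 11870.0 CPM in CON and 4746 ± 3670.0 CPM in MAL-BG. Of 10 mural cell and fibroblast genes, Rgs5 was called lower against CON, and Acta2 and Tagln higher and Rgs5 and Kcnj8 lower against MAL. Among 7 lymphocyte genes tested, Nkg7, Gzma, and Klrb1c, which are genes of NK and cytotoxic cells, were called higher in both comparisons, Gzma going from 23.1 ± 3.95 to 95.2 ± 35.6 CPM against CON.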
